A study of Mus musculus with 4 samples.

Results

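Differentiating granule-like cells are defined here as the cells of these mouse medulloblastomas with the highest share of RNA from 7 early neuronal genes and with at most 1 transcript captured from 6 genes of dividing cells. They are 247 of the 3266 tumour cells that passed the filters, and of 5670 cell barcodes in all. The cells come from tumours of the cerebellum in 4 littermates of the strain Atoh1-cre:SmoM2 at postnatal day 20, with 1 droplet library (10x Genomics Chromium 3′) per mouse. In this strain Atoh1-cre switches on SmoM2, an always active form of the Sonic hedgehog (SHH) transducer Smoothened, in granule neuron precursors, and every mouse carried it, so the series holds a single group with no untreated or wild-type cerebellum. Tumours were dissociated with Accutase for 20 minutes at 37 °C and living cells were sorted with the dye 7-AAD, a step that can set the shares of cell types. All comparisons are between cells of the same 4 mice, numbered 1 to 4.

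Granule neurons are the small glutamatergic neurons of the cerebellum. Their precursors divide in the external granule layer under SHH, which binds the receptor Patched 1 and so frees Smoothened to activate the Gli transcription factors. When a precursor leaves the cell cycle it lowers SHH target genes, turns on Neurod1 and axonal genes such as Cntn2, extends parallel fibres, migrates inward and later makes the receptors and transporters of a mature granule neuron. SHH-type medulloblastoma grows from these precursors, and some of its cells still take the first steps of that path.

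The cells were chosen on measured values, so those values are a description and carry no test. Each cell's score was the sum of its unique molecular identifiers (UMIs, 1 per captured transcript) of 7 genes per 10000 UMIs. Cntn2 (chr1:132509425-132543251) encodes an adhesion molecule of growing axons. Stmn2 (chr3:8509527-8561604) encodes a microtubule-binding stathmin of growing neurites, Tubb3 (chr8:123411553-123422015) the neuronal β-tubulin, and Gap43 (chr16:42248552-42340651) a growth cone protein. Neurod1 (chr2:79452637-79456636) encodes a transcription factor of granule neuron differentiation, Rab3a (chr8:70754703-70758608) a GTPase of synaptic vesicles, and Plppr1 (chr4:49059462-49340261) a membrane protein of neurite outgrowth. All are protein-coding, with coordinates from RefSeq on GRCm38, the assembly called mm10 in the submitters' processing notes. A cell had to lie in the top 10% of its library and hold at most 1 UMI over the cycle genes Mki67, Top2a, Cdk1, Ccna2, Ube2c and Cenpf. It also needed at least 500 genes, at least 1000 UMIs, at most 10% mitochondrial UMIs and fewer than 3 UMIs over 7 glial and myeloid genes.

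The libraries gave 86, 49, 46 and 66 such cells for mice 1 to 4, from 1108, 653, 610 and 895 filtered cells. The lowest score in the top 10% was 35.8, 42.9, 28.2 and 49.0 per 10000 in mice 1 to 4, and the highest score outside it was 35.7, 42.6, 28.0 and 48.6. The lowest-scoring cell of the top 10% held 8, 10, 7 and 13 score UMIs in mice 1 to 4. The fewest score UMIs of any differentiating cell were 3, so counting error alone moves cells across this border. The median score of the lower 90% was 8.86, 11.6, 7.94 and 12.4. A differentiating cell held a median of 10 score UMIs from 4 of the 7 genes, and 90.3% held at least 3 of the genes. In 40 of the 247 cells (16.2%) over 60% of the score UMIs came from a single gene. Tubb3 gave 32.6% of all score UMIs in the differentiating cells, Stmn2 31.7%, Gap43 14.5%, Neurod1 11.4%, Rab3a 4.92%, Cntn2 2.83% and Plppr1 1.99%.

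The differentiating cells were shallower than the rest, with a median of 1685 UMIs and 996 genes against 2429 UMIs and 1334 genes in the lower 90%. Mouse 3 stood lowest among them at 1424.5 UMIs, against 1829 to 1876 in the other mice. Mitochondrial RNA took a median of 3.51% of their UMIs and 3.03% in the lower 90%. Of the differentiating cells, 27.1% held fewer than 30 UMIs per 10000 of the nuclear RNA Malat1, against 16.8% of the lower 90%. Across the libraries, 20 barcodes occurred more than once, and 2 of the 247 cells carried such a barcode. Their part in the differences below was not tested, apart from the alternatives given with the results.

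The limit on cycle genes was met by more of the high-score cells. In mice 1 to 4, 78.2%, 75.4%, 75.4% and 74.2% of the top 10% held at most 1 cycle UMI (mean 75.8% ± 1.70, SD, n = 4), against 56.7%, 51.7%, 60.5% and 40.3% of the lower 90% (mean 52.3% ± 8.76). The top 10% lay above the lower 90% in every mouse and the groups did not overlap. After every cell was thinned to 1000 UMIs the shares were 86.6% ± 1.83 and 70.0% ± 5.44, with none of the 3266 cells shallower than that. At this depth a cell with at most 1 cycle UMI may still be cycling, so "postmitotic" in the sense used here means only that few cycle transcripts were captured. The 78 cells of the top 10% above the limit are described separately.

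**Figure D1:**
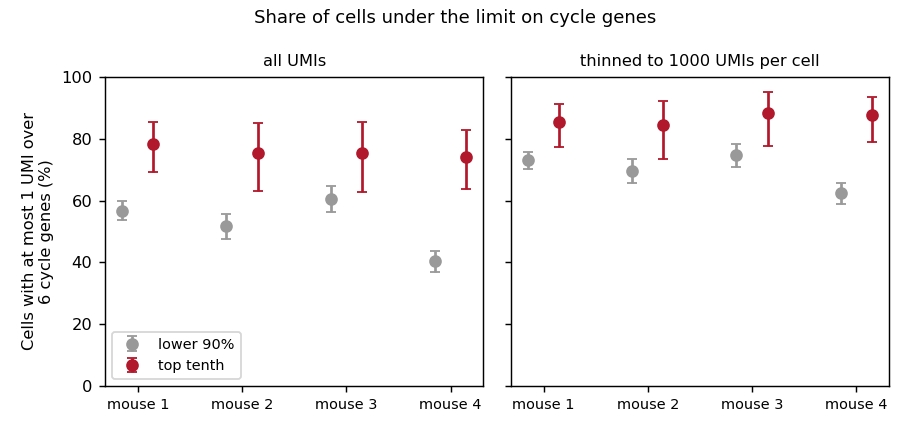
Share of cells with at most 1 UMI over the 6 cycle genes, in percent, for the top 10% of the score (red) and the lower 90% (grey) of each mouse, at full depth and thinned to 1000 UMIs per cell. Points are shares and bars exact 95% binomial intervals, which cover counting error only; at full depth the top 10% lies between 74.2% and 78.2% and the lower 90% between 40.3% and 60.5%.

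Markers of the granule lineage, 12 genes including Zic1, Pax6 and Neurod1, summed to 29.2 ± 4.03 UMIs per 10000 in the differentiating cells (SD, n = 4) and to 17.6 ± 1.32 in the quiet lower 90%, the 1527 lower-scoring cells that met the same limit on cycle genes. Without Neurod1, which the choice used, the sums were 22.2 and 16.7. Members of the list differed in direction. Zic1 was found in 74.1% of the differentiating and 60.8% of the quiet cells, and Pax6 in 43.7% and 32.0%. Atoh1 was found in 22.7% and 32.4%, Meis1 in 26.7% and 31.4%, Etv1 in 2.02% and 5.76%, and Cbln1 in 5.26% and 6.68%. Barhl1 was at 59.9% and 60.1%, and the differentiating cells were shallower. The 30 genes of the mature granule neuron list summed to 18.9 ± 3.95 UMIs per 10000, against 16.1 ± 1.05 in the quiet lower 90%. In mice 1 to 4 the sums were 15.998, 18.2, 16.9 and 24.7 against 16.095, 17.2, 14.7 and 16.3. The groups thus overlapped, mouse 1 was slightly lower and mouse 4 differed most. Some members of the list gave few or no UMIs. Slc17a7, the vesicular glutamate transporter of mature granule neurons, gave 1 UMI and Gabra6, their GABA-A receptor subunit, gave 3 UMIs, all in mouse 4. Grin2c, a glutamate receptor subunit, gave 0 of 484215 UMIs, which allows up to 6.196 CPM by counting error alone (CPM are UMIs scaled to a common library total, where 100 CPM is 1 UMI per 10000).

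Markers of other cell types were low, and several of the genes that define those types were at 0. Their part in the differences was not tested. The filter kept only cells with fewer than 3 UMIs over Olig1, Lhfpl3, Aqp4, Aldoc, Slc25a18, Tyrobp and C1qb. Low oligodendrocyte, astroglial and myeloid sums, and the 0 of Tyrobp and C1qb, were thus partly set by the choice. The 14 markers of GABAergic interneurons summed to 2.43 to 4.26 per 10000 in the differentiating cells and 1.14 to 2.39 in the quiet lower 90%, but 153 of the 158 UMIs were Lhx1, and Gad1, Gad2, Slc32a1 and Pax2 were at 0. The 8 markers of unipolar brush cells and cerebellar nuclei summed to 0.979 to 1.99 against 0.300 to 0.955, with 52 of 72 UMIs from Slc17a6 and with Lmx1a, Lhx9 and Tbr1 at 0. Purkinje cell markers, 9 genes, gave 1.08 to 2.19 against 0.933 to 1.39, with 34 of 81 UMIs from Foxp2 and 26 from Pcp4, and with Ppp1r17 and Skor2 at 0. Oligodendrocyte markers (12 genes) gave 2.19 to 3.69 against 2.24 to 4.47, with Sox10, Mag, Cspg4 and Enpp6 at 0. Of their 142 UMIs, 65 were Pdgfra and 44 Mbp, and without Olig1 and Lhfpl3 the means were 2.81 and 2.58. Astroglial markers (10 genes) gave 5.10 to 6.95 against 4.09 to 7.12, and without Aqp4, Aldoc and Slc25a18 the means were 5.21 and 5.70. Gja1 and Hopx were at 0, and were also rare in the quiet cells, at 10 and 17 UMIs. Fabp7 was found in 25.5% of the differentiating and 19.3% of the quiet cells, Slc1a2 in 18.2% and 25.6%, and Slc1a3 in 12.6% and 20.1%. Myeloid markers gave 4 UMIs in all with 8 of 10 genes at 0, vascular markers 7 UMIs with 6 of 10 at 0, and erythroid and lymphoid markers 4 UMIs with 7 of 8 at 0.

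To ask whether the score genes mark the same cells, each was measured in cells chosen on the other 6. The choice was made in the same way, and the comparison was with its quiet lower 90%. The score genes were picked with earlier results of these data known, so a joint rise was partly set by that choice. The p-values of these genes are therefore no independent evidence that they go together, and the sizes are a description. Neurod1 stood at 577, 581, 308 and 851 CPM in the cells chosen without it, in mice 1 to 4, and at 88.0, 106, 126 and 123 CPM in their quiet counterparts. It was higher in every mouse, by 2.50 ± 0.14 log2 (edgeR quasi-likelihood adjusted p = 1.11e-28). Cntn2 was at 163, 134, 89.2 and 191 CPM against 21.0, 11.3, 19.5 and 22.6 CPM, a difference of 3.00 ± 0.29 log2 (edgeR adjusted p = 3.21e-18). The groups did not overlap for either gene.

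The other score genes behaved alike, except Plppr1. Stmn2 was higher by 1.95 ± 0.09 log2, Tubb3 by 1.88 ± 0.08, Gap43 by 1.39 ± 0.11 and Rab3a by 1.98 ± 0.19, each in 4 of 4 mice (edgeR adjusted p = 7.87e-39, 3.55e-56, 2.25e-35 and 3.78e-16). Plppr1 did not pass the filter on low counts. It gave 52 UMIs against 71, a ratio of rates of 5.40 (95% counting interval 3.70 to 7.83), and stood higher in 3 of 4 mice, with 13.6 CPM against 21.1 in mouse 3.

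**Figure D2:**
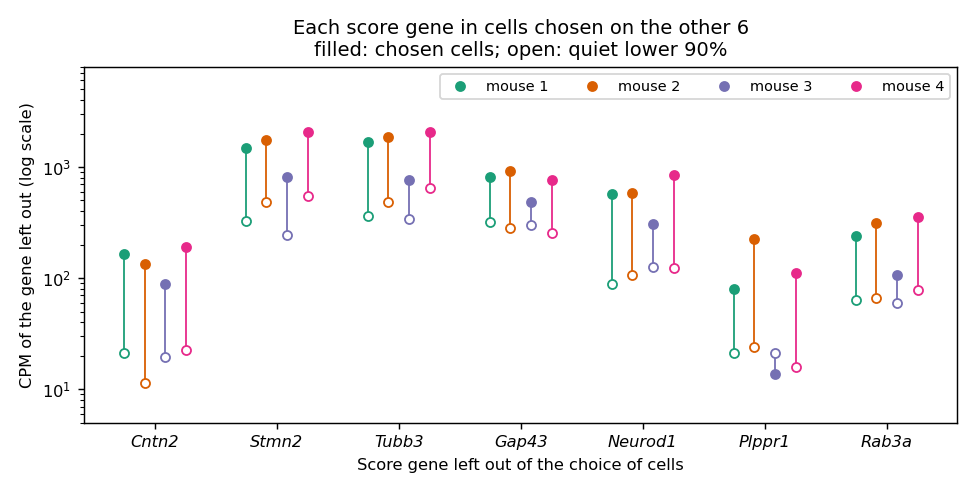
CPM, on a log scale, of each score gene in cells chosen on the other 6 (filled) and in the quiet lower 90% of the same choice (open), 1 pair of points per mouse. Filled points lie above open points in every pair except Plppr1 in mouse 3, at 13.6 against 21.1.

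The main comparison set the 247 differentiating cells against the 1527 quiet lower-scoring cells, with UMIs summed per mouse, so that both sides met the same limit on cycle genes. Most of the tested genes rose in the lists of early granule differentiation (18 of 26) and of tubulin and the growth cone (24 of 34). Falls without a rise were found for 13 of 34 S-phase genes, 24 of 51 ribosomal protein genes and 5 of 10 immediate early genes. The SHH list split, with 3 of 10 lower and 2 higher, though neither of these rises passed without mouse 1. Of 5233 genes tested outside the 20 genes of the rule, 346 were higher (6.61%) and 276 lower (5.27%) by edgeR at an adjusted p under 0.05, 11.9% together. These shares are the background for the count of every list against quiet cells, and no list was tested as a set. In 293 genes (5.6%) every differentiating value lay above every quiet one, and in 305 (5.83%) below. The median over all genes tested was -0.02 log2. Leaving out mouse 1 left 347 calls, leaving out mouse 4 left 390, and leaving out the shallow mouse 3 gave 632. In bulk sums such as these, fewer cells with a transcript and less of it per cell cannot be told apart.

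Ptch1 (chr13:63508328-63573460), which encodes the SHH receptor Patched 1 and is itself a target of the pathway, fell most clearly. It stood at 77.0, 97.9, 69.1 and 35.5 CPM in the differentiating cells of mice 1 to 4 and at 329, 223, 297 and 261 CPM in the quiet lower 90%. Every differentiating value lay below every quiet one. The difference was -2.02 ± 0.21 log2 (edgeR adjusted p = 2.9e-18), and it was passed under all 18 alternatives, at -1.25 where cells were chosen after thinning to 1000 UMIs, -1.37 with the top 20% and -2.62 with the top 5%. Gli1 and Gli2, the transcription factors at the end of the pathway, were too rare to test here. Gli1 gave 3 UMIs here and 123 in the quiet cells, 0.175 of their rate (exact 95% interval 0.0357 to 0.524). Gli2 gave 2 and 77 UMIs, 0.187 of the rate (0.0222 to 0.698), both UMIs in mouse 2.

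Ccnd1, the cyclin D1 that SHH induces in granule precursors, was at 314, 235, 304 and 185 CPM against 604, 594, 458 and 484 CPM, with no overlap. It fell by 1.06 on the log2 scale (SE 0.13, edgeR adjusted p = 1.04e-12). Ccnd2, the cyclin D2 of the same lineage, went the other way at 0.34 ± 0.08 log2 (edgeR adjusted p = 0.000487), with 1461 ± 303 CPM against 1195 ± 173 (SD, n = 4). Its groups overlapped, and without mouse 1 it was 0.17 log2 and did not pass (edgeR adjusted p = 0.333). Without the mouse block it did not pass either (edgeR adjusted p = 0.225). In all, the call of Ccnd2 was lost in 7 of 18 alternatives.

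Of the 25 genes of the SHH list, 10 had enough counts; 3 fell (Ptch1, Ccnd1 and Sfrp1), 2 rose (Ccnd2 and Pdgfra), and the list's median was -0.61 log2. Pdgfra, a receptor of platelet-derived growth factor, rose by 0.68 ± 0.23 log2 but did not pass without mouse 1 (0.68), mouse 2 (0.61) or mouse 3 (0.61). Its call was lost in 13 of 18 alternatives, among them DESeq2, no mouse block, 0 cycle UMIs and thinned sums. Sfrp1, a secreted Wnt antagonist, fell by 0.54 on the log2 scale (SE 0.14). Mycn, the MYC-family factor that SHH maintains in precursors, stood at 267 ± 31.2 against 245 ± 32.2 CPM and did not pass (0.18 ± 0.15 log2, edgeR adjusted p = 0.524).

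Among 28 genes of granule progenitors and granule identity, 19 were tested, 8 rose and 1 fell. Zic1, a zinc-finger factor kept by granule neurons, was at 877, 744, 663 and 1001 CPM against 453, 503, 462 and 501 CPM, with no overlap (0.83 ± 0.10 log2, edgeR adjusted p = 3.39e-14). Sox11, a factor of newborn neurons, was at 1037, 1223, 870 and 1129 CPM against 387, 540, 506 and 484 CPM (1.21 ± 0.09 log2, edgeR adjusted p = 7.93e-33). Lhx1, a LIM homeodomain factor, rose by 1.08 ± 0.15 log2 and Pax6, a homeodomain factor of the granule lineage, by 0.86 ± 0.14. Lhx1 is also among the GABAergic markers given above, so its rise does not tell these lineages apart. Zic1 and Pax6 are known to be expressed by postmitotic granule neurons too. Barhl1, a homeodomain factor of the lineage, was at 604, 558, 663 and 660 CPM against 407, 564, 636 and 505 CPM, with overlap (0.31 ± 0.11 log2, edgeR adjusted p = 0.0367). Its call was lost in 11 of 18 alternatives, among them without mouse 1 (0.19), without mouse 4 (0.24) and without the mouse block (0.26). Atoh1, the factor that keeps precursors dividing and that drives the Cre of this strain, was at 207, 147, 111 and 121 CPM against 222, 196, 183 and 152 CPM. Its groups overlapped and the difference did not pass (-0.29 ± 0.18 log2, edgeR adjusted p = 0.362). With the top 5% of the score in place of the top 10% it was -1.15 log2 and did pass.

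The list of early granule differentiation outside the score held 36 genes, of which 26 were tested, 18 rose and 1, Jam3, fell; its median was 0.79 log2. Nhlh1 and Nhlh2 encode related basic helix-loop-helix factors of newborn neurons. Nhlh2 stood at 361, 294, 262 and 284 CPM against 73.8, 103, 126 and 122 CPM, with no overlap (1.62 ± 0.17 log2, edgeR adjusted p = 3.04e-19). Nhlh1 was rarer, with 101, 29.4, 55.3 and 78.1 CPM against 17.8, 25.1, 28.1 and 17.1 CPM (1.79 ± 0.35 log2, edgeR adjusted p = 1.13e-05). Without mouse 1 it was 1.35 log2, at the threshold (adjusted p = 0.05). Neurod2, the paralog of Neurod1, gave 18 UMIs against 39 and was not tested here; its ratio was 3.32 (95% counting interval 1.79 to 5.94).

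Neuronal basic helix-loop-helix factors such as Neurod1 bind E-boxes, and Nhlh1 and Nhlh2 are shown as a pair that rose together and whose upstream sequence holds an E-box of the letters CAGATG, searched on both strands. The 250 bases before each start site are given from RefSeq on GRCm38.p6, 5′ to 3′ on the gene's strand, with the match in capitals: Nhlh1 lies at chr1:172057597-172057846 on the minus strand and Nhlh2 at chr3:102009895-102010144 on the plus strand. The match begins 203 bases before the start site in Nhlh1 and 127 bases before it in Nhlh2. The motif is common. It is in the upstream 250 bases of 16.3% of 27025 genes, of 37 of the 247 higher genes that have an entry (15.0%) and of 21 of 204 lower genes (10.3%), so the higher genes lie near the share of all genes. None of the 5 score genes with an entry holds it.
Nhlh1: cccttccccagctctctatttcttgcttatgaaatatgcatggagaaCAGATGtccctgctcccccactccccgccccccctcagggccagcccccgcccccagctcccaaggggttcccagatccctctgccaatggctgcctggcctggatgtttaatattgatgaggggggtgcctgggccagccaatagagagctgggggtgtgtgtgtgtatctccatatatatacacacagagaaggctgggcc
Nhlh2: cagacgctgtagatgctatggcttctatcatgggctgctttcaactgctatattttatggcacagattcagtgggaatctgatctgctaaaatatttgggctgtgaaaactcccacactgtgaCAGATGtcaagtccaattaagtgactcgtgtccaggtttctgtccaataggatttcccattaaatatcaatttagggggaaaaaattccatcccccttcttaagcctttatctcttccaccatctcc

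Other early genes rose in every mouse. Stmn4, a stathmin of neurons, was at 373, 372, 96.7 and 398 CPM against 75.4, 137, 15.8 and 90.9 CPM, lowest in mouse 3 on both sides (2.03 ± 0.17 log2, edgeR adjusted p = 2.17e-28). Dcx, the microtubule protein of migrating neurons, rose by 1.07 ± 0.16 log2, Elavl3, a neuronal RNA-binding protein, by 1.23 ± 0.11, and Sema6a, a membrane semaphorin that acts in granule cell migration, by 1.82 ± 0.32. Dpysl3, a collapsin response mediator of growth cones, rose by 1.56 ± 0.26.

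Genes of tubulin, the cytoskeleton and the growth cone gave the longest run of rises, 24 of 34 tested with 1 fall and a median of 0.78 log2. Map1b, the microtubule-associated protein of growing axons, was at 1357, 1155, 884 and 1469 CPM against 376, 449, 430 and 457 CPM (1.58 ± 0.09 log2, edgeR adjusted p = 7.81e-55). Mllt11, a small neuronal protein, was at 397, 294, 359 and 447 CPM against 81.9, 99.0, 91.3 and 133 CPM (1.93 ± 0.16 log2, edgeR adjusted p = 1.91e-30). Neither gene's groups overlapped. Tubb2a, a neuronal β-tubulin, rose by 1.77 ± 0.16 log2, Gpm6a, a membrane glycoprotein of neurites, by 1.42 ± 0.15, Kif5a, a neuronal kinesin, by 1.42 ± 0.38, and Mapt, which encodes tau, by 1.33 ± 0.23. Tuba1b, an α-tubulin made by dividing cells as well, fell by 0.29 (SE 0.10, edgeR adjusted p = 0.0305). That call is lost without mouse 1 (-0.34, edgeR adjusted p = 0.0721), without mouse 2 (-0.25, edgeR adjusted p = 0.217) and without the mouse block (-0.30). In all it was lost in 8 of 18 alternatives. Tubulins, ribosomal proteins and several chromatin genes have near-identical copies, among which 3′ reads may be split.

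**Figure D3:**
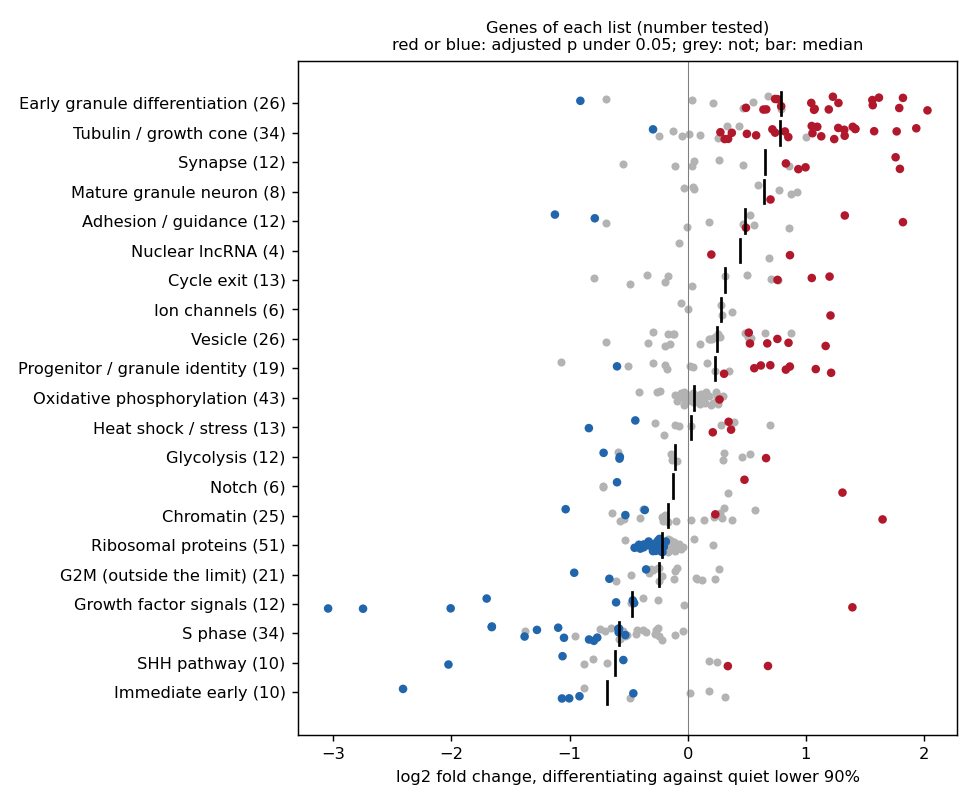
Log2 fold change of every tested gene of 21 lists, differentiating cells against the quiet lower 90%, with the number tested in brackets, genes with an adjusted p under 0.05 in red (higher) or blue (lower), others in grey, and a black bar at each list's median. Lists of growth cone and early granule genes have medians of 0.78 and 0.79, and the SHH and immediate early lists have medians of -0.61 and -0.68.

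Most synaptic genes were too rare to test: 12 of 41 passed the count filter, and 5 of these rose, with a median of 0.65 log2; without mice 1, 3 and 4 in turn 3 rose. Slc17a6, the vesicular glutamate transporter 2 that granule neurons use before Slc17a7, was at 94.8, 58.7, 152 and 135 CPM against 9.73, 27.6, 42.2 and 58.0 CPM (1.80 ± 0.30 log2, edgeR adjusted p = 1.57e-07). With sums from cells thinned to 1000 UMIs it was 1.07 log2 and did not pass (adjusted p = 0.205). Slc17a6 was higher in each mouse and its groups did not overlap.

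Of 30 genes of the mature granule neuron, 8 were tested and 1 rose, Rbfox3, the neuronal nuclear antigen NeuN. Its 119 ± 29.9 CPM overlapped the 74.9 ± 22.5 of the quiet cells (0.70 ± 0.24 log2, edgeR adjusted p = 0.0346). The call was lost without each mouse in turn, at 0.69, 0.76, 0.69 and 0.61 log2 without mice 1 to 4, and without the mouse block, at 0.71. In all it was lost in 11 of 18 alternatives. Among 32 ion channel genes 6 were tested and only Kcnk1, a two-pore-domain potassium channel, rose, by 1.21 ± 0.23 log2. In the adhesion and guidance list 3 of 12 rose (25%) and 2 fell (16.7%), against 6.61% and 5.27% of all genes tested. Cadm3, a neuronal cell adhesion molecule, rose by 1.33 ± 0.30 log2, and its relative Cadm1 fell by 0.79 on the log2 scale (SE 0.17).

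Although both sides held at most 1 UMI of the 6 limiting cycle genes, replication genes were lower in the differentiating cells. The 44 S-phase genes summed to 30.04, 19.5, 31.2 and 19.9 UMIs per 10000 in mice 1 to 4, against 38.6, 40.2, 42.3 and 39.6 in the quiet lower 90%. All 34 that were tested had a value below 0, 13 fell and none rose, and their median was -0.58 log2. Of 48 G2M genes outside the limit 21 were tested and 3 fell, with a median of -0.24 log2. Of the differentiating cells, 169 of 247 held no cycle UMI, and of the quiet ones 987 of 1527; with 0 cycle UMIs required on both sides, 8 of 29 tested S-phase genes fell. Without mouse 4 the number that fell was 7 of 34, without the mouse block 6 and by DESeq2 3. Hmgb2, a chromatin protein of dividing cells, fell by 0.35 on the log2 scale (SE 0.09); it did not pass without mouse 4 (-0.29) or without the mouse block (-0.39).

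Mcm6, a subunit of the replicative helicase, was at 148, 97.9, 152 and 114 CPM against 298, 326, 205 and 257 CPM, with no overlap (-1.10 ± 0.18 log2, edgeR adjusted p = 9.03e-08). Mcm3, another subunit, fell by 1.66 on the log2 scale (SE 0.29), and Cks1b, a cyclin-dependent kinase partner, fell by 0.96 (SE 0.18). Pcna, the sliding clamp, was at 86.8 ± 43.3 against 123 ± 19.3 CPM and did not pass (-0.44 ± 0.24, edgeR adjusted p = 0.267); without mouse 1 it was -0.92 and passed (adjusted p = 0.0479). Replication genes are known targets of E2F factors, and the 250 bases before the Mcm6 start site, chr1:128359706-128359955 on the minus strand (RefSeq, GRCm38.p6), are shown because Mcm6 is among the few genes that hold such a match. TTTCGCGC and TTTGGCGC were searched on both strands, and Mcm6 holds 3 matches, 2 of them overlapping, from 110 to 47 bases before the start site, in capitals. Of all 27025 genes 0.759% hold a match, as do 5 of 204 lower genes with an entry (2.45%) and 4 of 247 higher ones (1.62%).
Mcm6: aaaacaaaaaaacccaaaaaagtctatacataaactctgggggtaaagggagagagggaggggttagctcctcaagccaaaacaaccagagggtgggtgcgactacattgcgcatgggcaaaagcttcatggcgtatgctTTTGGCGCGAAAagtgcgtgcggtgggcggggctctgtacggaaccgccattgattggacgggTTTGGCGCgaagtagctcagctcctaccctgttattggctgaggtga

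Genes tied to leaving the cycle moved less. Of 13 tested, 3 rose, and 1 without mouse 1. Cdk5r1, the neuronal activator of the kinase Cdk5, was at 148, 137, 138 and 213 CPM against 49.5, 92.8, 96.6 and 67.1 CPM, with no overlap (1.20 ± 0.22 log2, edgeR adjusted p = 3.23e-06). Cdkn1b, the p27 inhibitor that precursors build up on exit, was at 184, 48.9, 193 and 142 CPM against 73.8, 76.5, 111 and 92.1 CPM. It stood lower in mouse 2 and higher in the other 3 mice (0.76 ± 0.22 log2, edgeR adjusted p = 0.00892), and without mouse 1 it was 0.45 and did not pass (adjusted p = 0.429), as without the mouse block (0.74).

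In the Notch list 2 of 6 tested genes rose: Dner, a neuronal Notch ligand, by 1.31 ± 0.28 log2, and Hey1, a Notch target, by 0.48 ± 0.15. Hey1 did not pass without mouse 1 (0.31, edgeR adjusted p = 0.401), without mouse 3 (0.39, edgeR adjusted p = 0.111) or without the mouse block (0.48). Its call was lost in 9 of 18 alternatives. Hes6, a relative of the Notch targets, fell by 0.60 on the log2 scale (SE 0.21). That call was lost in 13 of 18 alternatives, among them without each mouse in turn (-0.71, -0.61, -0.63 and -0.50 without mice 1 to 4) and without the mouse block. Of 25 chromatin genes tested 2 rose (8%) and 3 fell (12%), few genes beside the 6.61% and 5.27% of all genes tested. Actl6b, the subunit that replaces its relative Actl6a in the chromatin remodeller of postmitotic neurons, was at 113, 108, 13.8 and 71.0 CPM against 26.0, 27.6, 12.3 and 36.4 CPM. It rose by 1.65 ± 0.32 log2 (edgeR adjusted p = 1.36e-05), with almost no difference in mouse 3.

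Ribosomal protein genes fell together by small amounts. Of 51 tested 24 fell and none rose, 49 had values below 0, and the median was -0.21 log2. Their sum was 1121, 1114, 1188 and 1062 UMIs per 10000 in the differentiating cells of mice 1 to 4 and 1357, 1310, 1248 and 1275 in the quiet ones. The number that fell was 14 without mouse 1, 12 without mouse 2 and 10 by DESeq2, and it ran from 2 without the mouse block to 41 without the count filter, while the median stayed between -0.34 and -0.17 log2. Rps20, of the small subunit, fell by 0.45 on the log2 scale (SE 0.08) and was passed under all 18 alternatives. The share of cells with fewer than 30 Malat1 UMIs per 10000 also differed, 27.1% against 15.6% of quiet cells; with those cells removed on both sides 37 ribosomal genes fell.

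Energy genes split by gene. Aldoa, the aldolase of glycolysis, was at 533, 401, 608 and 497 CPM against 314, 347, 256 and 360 CPM (0.66 ± 0.12 log2, edgeR adjusted p = 1.8e-06), and Pkm, pyruvate kinase, was at 545, 489, 470 and 327 CPM against 805, 756, 734 and 718 CPM (-0.71 ± 0.11, edgeR adjusted p = 8.77e-09). Neither gene's groups overlapped. In all, 1 of 12 glycolysis genes rose and 3 fell (1 without mouse 1). Of 43 genes of oxidative phosphorylation 1 passed, Cox4i1 (0.26 ± 0.07 log2). That call was lost in 10 of 18 alternatives, among them without mouse 1 (0.24), without mouse 2 (0.25) and without the mouse block (0.26).

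Immediate early genes, which answer growth factor signals and also dissociation, were lower: 5 of 10 tested fell, none rose, and the median was -0.68 log2. Egr1, a zinc-finger factor of this class, was at 231, 254, 180 and 199 CPM against 496, 456, 248 and 491 CPM (-1.003 ± 0.14 log2, edgeR adjusted p = 5.95e-10), lower in each mouse though the groups overlapped. Dusp6, the phosphatase induced by ERK signalling, gave 5 UMIs against 195, all 5 in mouse 1, and fell by 2.41 on the log2 scale (SE 0.53); it did not pass without the mouse block (-2.32) and was not tested without mouse 1. Fos, an AP-1 subunit, fell by 1.06 (SE 0.24); without mouse 1 it was -0.53 and did not pass (adjusted p = 0.266), as without the mouse block (-1.01). Without mouse 1, 2 of 9 passed, and without the mouse block 1 of 10. Heat shock genes, the other sign of handling, split: of 13 tested 3 rose (1 without mouse 4) and 2 fell. That is 23.1% and 15.4%, against 6.61% and 5.27% of all genes tested. Hspa5, a chaperone of the endoplasmic reticulum, fell by 0.84 on the log2 scale (SE 0.15).

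Growth factors and secreted proteins were lower with an exception. Of 12 tested 7 fell and 1 rose, with a median of -0.47 log2; without the mouse block 3 fell. Ptn, which encodes pleiotrophin, was at 296, 411, 304 and 483 CPM against 116, 177, 121 and 167 CPM, with no overlap (1.39 ± 0.15 log2, edgeR adjusted p = 3.32e-18). Pdgfa, a platelet-derived growth factor chain, was at 59.3, 29.4, 166 and 63.9 CPM against 259, 238, 269 and 177 CPM (-1.70 ± 0.22 log2, edgeR adjusted p = 3.12e-12). Gpc3, a glypican of the cell surface, gave 2 UMIs here and 127 in the quiet cells, 0.113 of their rate (exact 95% interval 0.0136 to 0.417; edgeR adjusted p = 0.000557). Sparcl1, a matrix protein, fell by 2.01 (SE 0.44) and did not pass without the mouse block (-1.95).

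Genes of extracellular vesicles, the subject of the series title, rose for 6 of 26 tested and fell for none, with a median of 0.24 log2. The share that rose was 23.1%, against 6.61% of all genes tested. Chmp5 and Tsg101, ESCRT subunits that act in sorting cargo to endosomal vesicles, rose by 0.76 ± 0.16 and 0.67 ± 0.15 log2. Without mouse 1 the list had 2 rises and without mouse 4 it had 3. Chmp5 did not pass with sums from thinned cells or with the top 5% of the score. The tetraspanin Cd63 was at 1564, 1850, 1368 and 1342 CPM against 1360, 1470, 1547 and 1449 CPM, with overlap, and did not pass (0.10 ± 0.08 log2, edgeR adjusted p = 0.497).

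Among nuclear noncoding RNAs Miat rose by 0.87 ± 0.19 log2; without the mouse block it was 0.88 and did not pass (adjusted p = 0.151). Malat1 was at 12946, 17343, 15222 and 21615 CPM against 13083, 16348, 15262 and 13811 CPM, so it was higher in 2 mice and lower in 2, although edgeR called it (0.20 ± 0.06 log2, adjusted p = 0.0131). Without mouse 4 it was 0.01 and without mouse 2 it was 0.21, and neither passed (adjusted p = 0.959 and 0.167), nor did it without the mouse block (0.22).

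**Figure D4:**
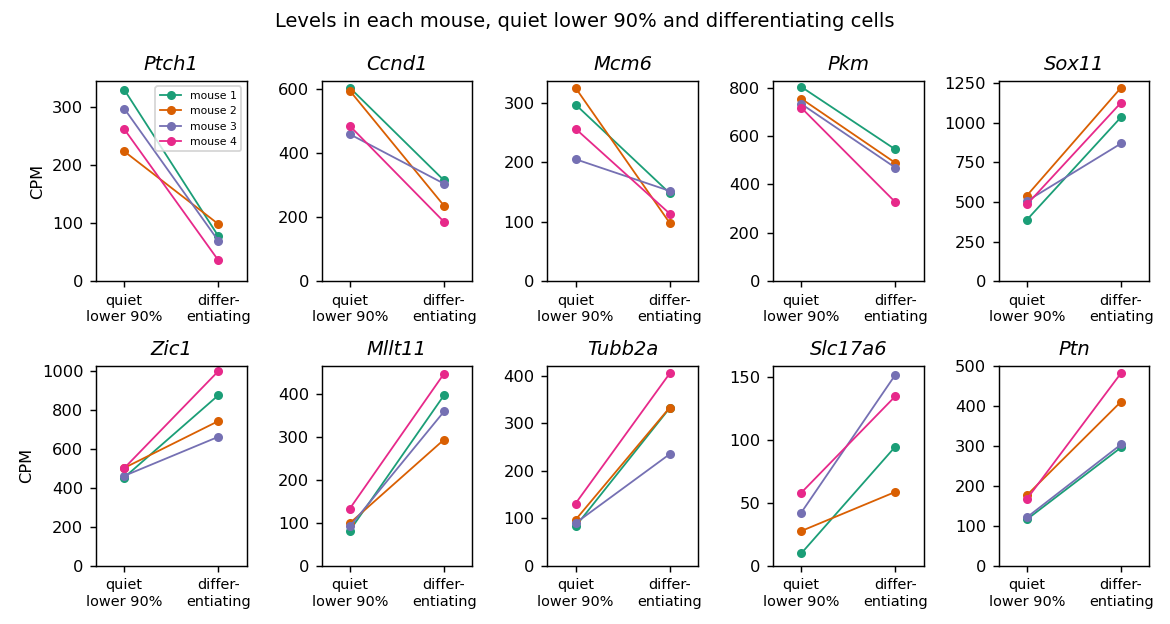
CPM of 10 genes in the quiet lower 90% and in the differentiating cells, 1 line per mouse, each axis starting at 0. Ptch1, Ccnd1, Mcm6 and Pkm go down in all 4 mice and the other 6 genes go up in all 4, with Ptch1 ending between 35.5 and 97.9 CPM.

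Outside the lists, the genes with the largest rises were led by Pdzrn3, a ubiquitin ligase with PDZ domains, at 53.3, 88.1, 69.1 and 63.9 CPM against 8.11, 5.01, 1.76 and 5.68 CPM (3.49 ± 0.45 log2, edgeR adjusted p = 4.66e-12). Elmo1, an activator of Rac in cell migration, rose by 2.78 ± 0.39 log2, Opcml, a neuronal adhesion molecule, by 2.46 ± 0.37, Tex14, known from germ cell bridges, by 2.44 ± 0.27, Ppp2r2b, a neuronal phosphatase subunit, by 2.26 ± 0.39, Itsn1, an endocytic scaffold, by 2.22 ± 0.21, and Clvs1 by 1.92 ± 0.30. Without mouse 2 Opcml was 1.77. Ren1, the gene of renin, was at 551, 147, 13.8 and 99.4 CPM against 23.5, 68.9, 3.51 and 37.5 CPM. It was higher in every mouse but mouse 1 carried most of it: the 2.75 ± 0.24 log2 became 1.28 without mouse 1 and 3.40 without mouse 2. Some mouse strains carry the near-identical Ren2, which these counts cannot tell apart from Ren1.

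Those with the largest falls were Pon2 (-2.53 ± 0.57 log2; 4 UMIs against 172), Mmp14, a membrane metalloprotease (-2.31 ± 0.42; 8 against 292), Smoc1, a matrix protein (-2.01 ± 0.42; 9 against 262), and Mettl1, a transfer RNA methyltransferase (-1.89 ± 0.42). Frmd4b, Pdlim3, Sowaha and Eif4ebp1 followed at -1.88 ± 0.43, -1.83 ± 0.26, -1.70 ± 0.25 and -1.67 ± 0.39 log2. The 4 UMIs of Pon2 were all in mouse 1, and without mouse 1 Smoc1 was at -3.18. Pdlim3 differed widely between mice, 107, 9.79, 0 and 56.8 CPM against 466, 43.9, 14.1 and 98.9 CPM, and without mouse 1 it was -1.08 and did not pass (adjusted p = 0.192), nor without the mouse block (-1.60).

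Levels were also followed along the whole score. Each mouse's filtered cells were ranked by score and cut into 10 bins of equal size, 325 to 328 cells over the 4 mice, and levels are UMIs per 10000 with no test. Ptch1 stood at 3.45 ± 1.00 in bin 1, 3.04 ± 0.655 in bin 5, 2.04 ± 0.456 in bin 8, 1.48 ± 0.352 in bin 9 and 0.771 ± 0.211 in bin 10 (SD, n = 4). Ccnd1 stood at 4.93 ± 0.784, 5.75 ± 1.14, 4.97 ± 0.798, 4.06 ± 0.624 and 2.73 ± 0.731 in the same bins. Ptch1 was lower in bin 8 than in bin 1 in each mouse, though the values of the mice overlapped. Ccnd1 was highest in bin 3, at 6.06 ± 0.795, and its mean in bin 8 was near that of bin 1. The order of these falls along the score was not tested.

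For several genes of the growth cone the largest step was between the last bins, where the score itself also made its largest step. The score sum stood at 0.312, 10.2, 21.3, 30.4 and 59.4 in bins 1, 5, 8, 9 and 10. The steps of the genes cannot be told apart from that of the score. Mllt11 stood at 0.533, 0.750, 1.31, 1.75 and 3.60 in bins 1, 5, 8, 9 and 10, and Tubb2a at 0.611, 0.847, 1.24, 1.55 and 3.14. Map1b stood at 2.27, 3.75, 5.63, 6.66 and 11.6 in the same bins, and Ccnd2 at 8.05, 12.3, 14.5, 14.4 and 14.5. Immediate early genes stood at 25.2, 18.9, 16.9, 14.6 and 12.9, and ribosomal genes at 1295, 1169, 1145, 1132 and 1101. The S-phase list stood at 50.2, 54.6, 47.9, 41.4 and 29.5. Atoh1 stood at 1.76, 1.58, 1.80, 1.85 and 1.61. Median depth was not even along the bins, from 1859 UMIs in bin 10 to 2898.5 in bin 2, and its part in these levels was not tested.

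**Figure D5:**
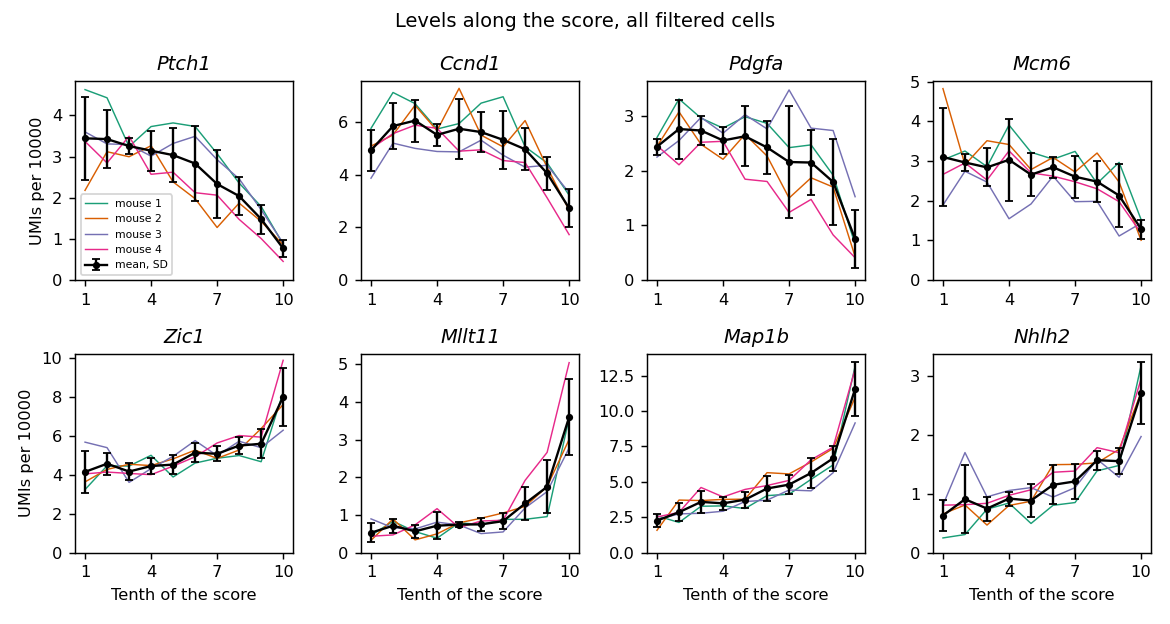
UMIs per 10000 of 8 genes in 10 bins of the score, from the lowest (1) to the highest (10), over all 3266 filtered cells, with a thin line per mouse and black points for the mean ± SD of 4 mice. The mean of Ptch1 goes from 3.45 in bin 1 to 0.771 in bin 10 and that of Map1b from 2.27 to 11.6.

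The differentiating cells varied among themselves. In each mouse they were divided at their median score, into 123 cells with lower and 124 with higher scores, again with no test. Atoh1 was at 2.59, 2.54, 1.47 and 1.78 UMIs per 10000 in the lower-scoring cells of mice 1 to 4 and at 1.55, 0.392, 0.634 and 0.682 in the higher-scoring ones, lower in 4 of 4 mice. Ptch1 was at 0.942, 1.56, 0.979 and 0.740 against 0.597, 0.392, 0.317 and 0, and Ccnd1 at 3.43 ± 0.734 against 1.73 ± 0.621, both lower in each mouse. Zic1 was at 6.60 ± 1.73 in the lower-scoring and 9.85 ± 1.72 in the higher-scoring cells, and Map1b at 8.48 ± 2.06 and 16.0 ± 2.98, both higher in each mouse. S-phase genes summed to 30.5 ± 7.20 and 19.6 ± 5.75. Malat1 was higher in the higher-scoring cells of each mouse, 207 ± 57.9 against 129 ± 22.1, and these were shallower, with a median of 1610.5 against 1823 UMIs; their part was not tested. Slc17a6 and Pdzrn3 were each higher in 2 of 4 mice, at 1.096 against 1.13 and 0.719 against 0.669.

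Against the whole lower 90%, dividing cells included, 450 genes were higher (6.74%) and 443 lower (6.63%) of 6678 tested, 13.4% together, and 6.06% lay above and 8.07% below with no overlap; without mouse 4 the calls were 543. The cycle limit acts on 1 side here, so the S-phase and G2M lists are described only: all 42 S-phase genes and all 46 G2M genes fitted had values below 0, with medians of -1.11 and -2.14 log2. Outside these lists some differences had nearly the same size as against the quiet cells and others did not. Ptch1 was -2.06 ± 0.21 log2, Ccnd1 -1.09 ± 0.13, Sox11 1.06 ± 0.09 and Mllt11 2.16 ± 0.15, with early granule genes higher for 19 of 29 and lower for none. Tuba1b was -0.92 ± 0.09 log2 against -0.29 with quiet cells, and Aldoa 1.15 ± 0.12 against 0.66. Ribosomal genes were lower for 11 of 51 and higher for 1, and chromatin genes lower for 8 of 29 and higher for 1. With more counts in this comparison Gli1 was tested: its 3 UMIs, against 324, came to 0.159 of the rate (exact 95% interval 0.0326 to 0.468; edgeR adjusted p = 0.000804). Gli2, 2 UMIs against 213, passed (edgeR adjusted p = 0.0108) but not without mouse 1 (-2.09 log2, adjusted p = 0.111) or mouse 4 (-2.07, adjusted p = 0.129). Neurod2 was higher at 17.8, 19.6, 82.9 and 49.7 CPM against 3.54, 2.72, 19.3 and 13.0 CPM (2.13 ± 0.47 log2, edgeR adjusted p = 0.000199), though not without the mouse block (2.08). Etv5, an ETS factor that growth factor signals induce, gave 3 UMIs against 486, or 0.106 of the rate (exact 95% interval 0.0217 to 0.311; edgeR adjusted p = 2.88e-06). Its -3.28 log2 was -4.54 without mouse 2 and -2.58 without mouse 1.

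The 78 cells of the top 10% that exceeded the cycle limit were compared last. Their score genes, used by the choice and so not tested, gave 18.9 ± 4.05 UMIs per 10000 of Stmn2 against 19.4 ± 5.72 in the differentiating cells, 15.8 ± 3.93 against 19.8 ± 4.99 of Tubb3, 8.57 ± 1.06 against 9.07 ± 0.957 of Gap43 and 6.96 ± 3.17 against 7.02 ± 1.69 of Neurod1. Rab3a stood at 2.31 ± 1.05 against 3.01 ± 0.988, Cntn2 at 1.297 ± 0.471 against 1.72 ± 0.402 and Plppr1 at 1.18 ± 0.954 against 1.22 ± 0.820. For all 7 genes the difference was smaller than the larger SD. The cycling cells were deeper, with a median of 2371.5 against 1685 UMIs. The early granule list outside the score summed to 93.9 ± 3.98 in the cycling and 89.3 ± 10.1 in the differentiating cells. Immediate early genes summed to 9.72 ± 1.03 in the cycling and 14.3 ± 3.09 in the differentiating cells, with no overlap. Ribosomal genes summed to 1058 ± 100 and 1121 ± 51.8, with overlap. The quiet lower-scoring cells stood at 21.5 and 1297, so low sums of both lists were not confined to the differentiating cells. None of the 4 immediate early and 49 ribosomal genes tested here passed. Of 1353 genes tested 3 were higher in the differentiating cells (0.222%) and 18 lower (1.33%), 1.55% together, in sums of 15 to 24 cycling cells per mouse, which leave most genes untested. Rtn1, a reticulon of neurons, was at 2044, 2006, 2072 and 2485 CPM against 1682, 965, 1667 and 1734 CPM (0.52 ± 0.12 log2, edgeR adjusted p = 0.00113), a call lost without mouse 2 (0.40, adjusted p = 0.0852) and without the mouse block (0.50). Ckb, creatine kinase B, was 0.46 ± 0.10 log2 higher and Cnrip1 1.14 ± 0.33, and both also lost the call without mouse 2, at 0.35 and 0.84, without the mouse block and by DESeq2. Ckb was 0.23 and did not pass with 0 cycle UMIs required. Cnrip1 lost its call in 8 of 15 alternatives, among them without mouse 3 (1.02) and without mouse 4 (1.23), and was lowest, at 0.13, with cells chosen after thinning.

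The genes lower than in those cycling cells include genes of division and replication, which the split on cycle UMIs itself sets apart, so they and the count of 18 are a description. Among them were Pbk, a mitotic kinase (-2.05 log2), 2810417H13Rik, which binds PCNA (-1.65), Racgap1, a regulator of cell division (-1.35), H2afx, a histone of replicating cells (-1.40), and Hmgn2, a nucleosome-binding protein (-0.90). Ptch1 had too few counts to be tested on this contrast, with 33 UMIs in 247 differentiating cells against 19 in 78 cycling cells. These counts are not scaled to UMI totals, so they do not show a higher level in the differentiating cells. Bin 10 of the score, which holds both groups, stood at 0.771 ± 0.211 Ptch1 UMIs per 10000, against 3.45 ± 1.00 in bin 1 (SD). Low Ptch1 was thus found in the top 10% with its cycling cells included. Ccnd1 did not pass against the cycling cells (-0.16 ± 0.24 log2, edgeR adjusted p = 0.913), nor did Ccnd2, Mycn or Cd63.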

How the data were processed

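RNA was measured in 4 libraries, 1 per mouse. The submitters' processing notes name Cell Ranger 2.0.2, Seurat and mm10; the annotation is not given in the sources used here. The deposited values are raw UMI counts per gene and cell, per the file headers. The libraries hold 3415171, 2573901, 1679285 and 3801197 UMIs over 5670 barcodes, more than the 4749 cells the study states, and its cell filter is not given in the sources used here. The filters of the choice left 3266 cells. Doublets were not called or removed. The 7 score genes, 21 gene lists, 9 marker lists and the members were chosen with earlier results of these data known.

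UMIs were summed per mouse and class (at least 10 cells) and tested with edgeR 4.0.16 in R 4.3.3 (quasi-likelihood test, TMM, filterByExpr, mouse as a block, Benjamini-Hochberg over all genes tested, threshold 0.05) after a test on simulated data. Both classes of a mouse share its animal and library, and their deviations correlated at 0.152 to 0.289, so the block is the main fit. Errors after log2 values are standard errors worked back from the F statistic, not spreads over mice. CPM values are per mouse; p-values rest on 4 littermates. Intervals of ratios are exact and cover counting error only. Genes named were a fixed set, the 2 largest rises and falls per list among those called with at least 20 UMIs, and the 8 highest and lowest (4 against cycling cells) outside lists at 50 CPM or more; a few others from the lists (Nhlh2, Dcx, Elavl3, Dpysl3, Jam3, Map1b, Gpm6a, Kif5a, Mapt, Pax6, Egr1, Pdgfa, Sfrp1) were chosen after their values were seen. Of 346 higher and 276 lower genes 247 and 204 matched a RefSeq promoter. Alternatives covered the score share, cycle limit, glial gate, mitochondrial and Malat1 limits, depth, thinning, scaling, count filter, DESeq2 1.42.0, no block and leaving out each mouse. A result that the naming rule gives for the synapse list is not reported here.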

Additional observations from a re-analysis of the deposited data

Results flagged for a closer look

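Of 50 sets of 4 mouse values checked in the differentiating cells, 4 held a mouse far from the other 3. A chance rate of about 1 in 20 does not apply to counts near 0. The median depth was 1424.5 UMIs in mouse 3 and 1829 to 1876 in the others. Gli2 stood at 19.6 CPM in mouse 2 and at 0 in the others, Gabra6 at 21.3 CPM in mouse 4 and at 0 in the others, and Slc17a7 at 5.93 CPM in mouse 1 and at 0 in the others. The last 3 rest on 2, 3 and 1 UMIs. A set with 3 mice at 0 and 1 above 0 is always flagged, so these 3 flags were fixed by the rarity of the genes.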

How the results depend on the processing

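Against the quiet lower 90% the 622 calls became 407 with 0 cycle UMIs required, 211 with DESeq2, 225 with sums thinned to 1000 UMIs and 233 without the replicate block, and 347 to 632 when a mouse was left out (347 without mouse 1, 390 without mouse 4). The share of higher calls went from 55.6% to 71.6% with DESeq2 and 73.0% without the block, and to 35.9% without the count filter; against the whole lower 90% it went from 50.4% to 64.5% with DESeq2, 28.3% without the count filter and 39.4% with the top 5%. Against the whole lower 90% the 893 calls became 389 with DESeq2, 376 with thinned sums and 439 without the replicate block, and 543 to 890 when a mouse was left out. Against cycling cells the 21 calls became 8 with DESeq2, 118 with cells chosen after thinning, 41 without the count filter, 13 with thinned sums and 159 with the top 20%, 14 without the replicate block, and 15 to 23 when a mouse was left out; the top 5% was not run there, since fewer than 3 mice held 10 cells on both sides. Without the count filter the median of all genes was -0.30 log2 against quiet and -0.43 against all lower-scoring cells. The cause was not tested. The 6 tested score genes kept their direction and their calls without the replicate block and without each mouse. Of genes named as fixed, these changed sign, none with a call in either fit: Atoh1 against the lower 90% (0.0524, top 20%); Cd63 against quiet cells (-0.0274 without the count filter, -0.0044 to 0.161 when a mouse was left out, the lowest without mouse 2); and, against cycling cells, Ccnd1 (0.001 with 0 glial UMIs, 0.0253 without the count filter), Ccnd2 (-0.0264 with 0 glial UMIs, -0.0485 and -0.039 without mice 1 and 2, up to 0.1857 without mouse 4), Mycn (0.1562 at 5% mitochondrial UMIs, 0.2018 chosen after thinning, 0.1343 without the count filter, 0.0287 top 20%, 0.0964 with the Malat1 limit, 0.1427 without mouse 3 and down to -0.1877 without mouse 2, 0.0258 without the deepest cells) and Cd63 (0.0122, 0.1614, 0.1827 and 0.1851 under the first 4 of these settings, 0.0004 without the replicate block, 0.0924 with thinned sums, 0.0626 and 0.0918 without mice 1 and 3 and down to -0.1466 without mouse 2, 0.019 without the deepest cells).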
